A study of Mus musculus with 12 samples.

Results

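The genes described here carry iron and heme in plasma, store or import iron, or control its release: hepcidin (Hamp), transferrin (Trf), hemopexin (Hpx), haptoglobin (Hp), ceruloplasmin (Cp), ferritin heavy chain (Fth1) and the transferrin receptor (Tfrc). All probe sets whose only gene symbol in the platform annotation was one of these 7 were taken, which gave 12 probe sets of 6 genes out of 12488 on the array, or 6 of 8252 genes that are the only symbol of a probe set. Hamp, Hp and Cp had 1 probe set each, Hpx and Fth1 had 2, and Tfrc had 5, of which 3 were control probe sets of the manufacturer. No such probe set was found for Trf, which is not analysed here.

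RNA came from liver, cortex and cerebellum of 1 adult NMR-1 mouse and was hybridised to Affymetrix MG_U74Av2 oligonucleotide arrays. The standard procedure (1X) started from 5 µg of RNA with 1 linear amplification and had 1 array for each tissue. The modified procedure (3X) started from 1 ng with 3 linear amplifications and had 3 technical replicate arrays for each tissue. All 12 arrays thus come from 1 animal for which no treatment is given, and p-values measure only the spread between arrays. The procedures differ in starting amount, in kit (RiboAmp HS at 3X) and in amplification rounds, whose effects cannot be told apart.

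Iron leaves cells through ferroportin, and hepcidin, a peptide hormone made mainly by hepatocytes, makes cells take ferroportin down. In plasma, transferrin binds ferric iron and delivers it to cells through the transferrin receptor, and ceruloplasmin, a copper protein, oxidises ferrous iron in a form that transferrin can take up. Haptoglobin binds free hemoglobin and hemopexin binds free heme, and both are made chiefly by the liver and rise in inflammation. Ferritin, built from heavy and light chains, stores iron inside cells in every tissue.

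The promoters of hepcidin, of its close copy Hamp2 and of hemopexin are shown because these secreted proteins are liver products, and because the array's Hamp probe set cannot be assumed to tell Hamp from Hamp2. RefSeq sequences of build GRCm38.p6 were used, 250 bases immediately before the start of the gene, read 5′ to 3′ on the gene's strand. Capitals mark matches, on either strand, to TTCNNNGAA (bound by STAT factors), GGCGCC (a BMP response element), TTGCNNAA (C/EBP), CAAAGTCCA (HNF4) or the HNF1 motif. The Hamp window lies at chr7:30944030-30944279 on the minus strand, the Hamp2 window at chr7:30924182-30924431 on the minus strand and the Hpx window at chr7:105600117-105600366 on the minus strand.
Hamp: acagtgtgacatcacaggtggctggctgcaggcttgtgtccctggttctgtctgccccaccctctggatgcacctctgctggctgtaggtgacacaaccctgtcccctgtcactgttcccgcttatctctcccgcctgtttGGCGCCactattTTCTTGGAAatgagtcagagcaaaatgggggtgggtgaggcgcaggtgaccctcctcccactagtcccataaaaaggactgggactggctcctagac
Hamp2: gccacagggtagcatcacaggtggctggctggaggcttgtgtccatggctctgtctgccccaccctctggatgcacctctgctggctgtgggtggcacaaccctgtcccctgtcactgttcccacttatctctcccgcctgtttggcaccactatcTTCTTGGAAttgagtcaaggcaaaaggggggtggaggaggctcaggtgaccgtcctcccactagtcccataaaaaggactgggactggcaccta
Hpx: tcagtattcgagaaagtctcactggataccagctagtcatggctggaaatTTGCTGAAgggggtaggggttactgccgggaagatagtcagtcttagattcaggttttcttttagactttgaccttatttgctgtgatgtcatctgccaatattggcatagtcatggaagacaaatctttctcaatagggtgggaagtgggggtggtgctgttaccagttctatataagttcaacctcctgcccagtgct
The Hamp window held GGCGCC from 109 to 104 bases before the start and TTCTTGGAA from 97 to 89 bases before it, with no overlap. The Hamp2 window held TTCTTGGAA but no GGCGCC, and the 2 windows were identical at 227 of 253 aligned positions (89.7%). The Hpx window held a single match, TTGCTGAA for C/EBP. Of 32851 promoter windows of that length, 7.02% held the STAT pattern, 9.59% GGCGCC, 9.56% the C/EBP pattern, 0.371% the HNF1 pattern and 0.384% the HNF4 pattern. Windows were found for 5 of the 7 genes. In those of the other genes, C/EBP matches stood in 1 of 2 windows each of Cp (TTTTGCAA) and Fth1 (TTGCAGAA and TTGGGCAA), an HNF1 match in the other Cp window (AATCATTAAC) and GGCGCC in 1 of 2 Tfrc windows. The loop of the iron responsive element, CAGTGN with a C before 5 bases ahead of it, was found in none of the first 50 transcribed bases of these windows and in 1.55% of all windows. Only those 50 bases were searched for the loop, so an element elsewhere in a transcript could not be found. Its absence there does not show that Fth1, Tfrc or another gene lacks it. A match is a string of letters and was not tested for binding.

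Signals are log2 values from RMA, which gives no detection call. Array medians were 3.45 to 3.48, and 4 probe sets for yeast genes, which have no target in the mouse, gave 1.86 to 4.98. A signal in that range is called dim here, and no fold is given against it: a log2 difference from such a signal is the distance between the signals as deposited and sets no size for the difference in RNA. Between 3X arrays of the same tissue, Pearson's r across probe sets was 0.977 to 0.994. Against the liver array at 1X, r was 0.894, 0.893 and 0.928 for liver replicates 1, 2 and 3 at 3X. Of 6 hepatocyte markers 5 were called higher in liver than in brain at 3X, and the summed log2 signal was 61.66 to 68.15 in liver against 29.45 to 30.25 in both brain regions. Of 6 neuronal markers 4 were called lower in liver. The liver 1X array had the highest hepatocyte sum (71.40) and a neuronal sum of 23.77, beside 28.25 to 31.77 in liver at 3X. In brain the neuronal sum was 48.67 (cortex) and 48.10 (cerebellum) at 1X and 40.63 to 43.20 at 3X. All 5 kidney markers were called higher in cerebellum than in cortex (summed log2 signal 27.02 to 27.50 against 19.71 to 20.64).

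**Figure D1:**
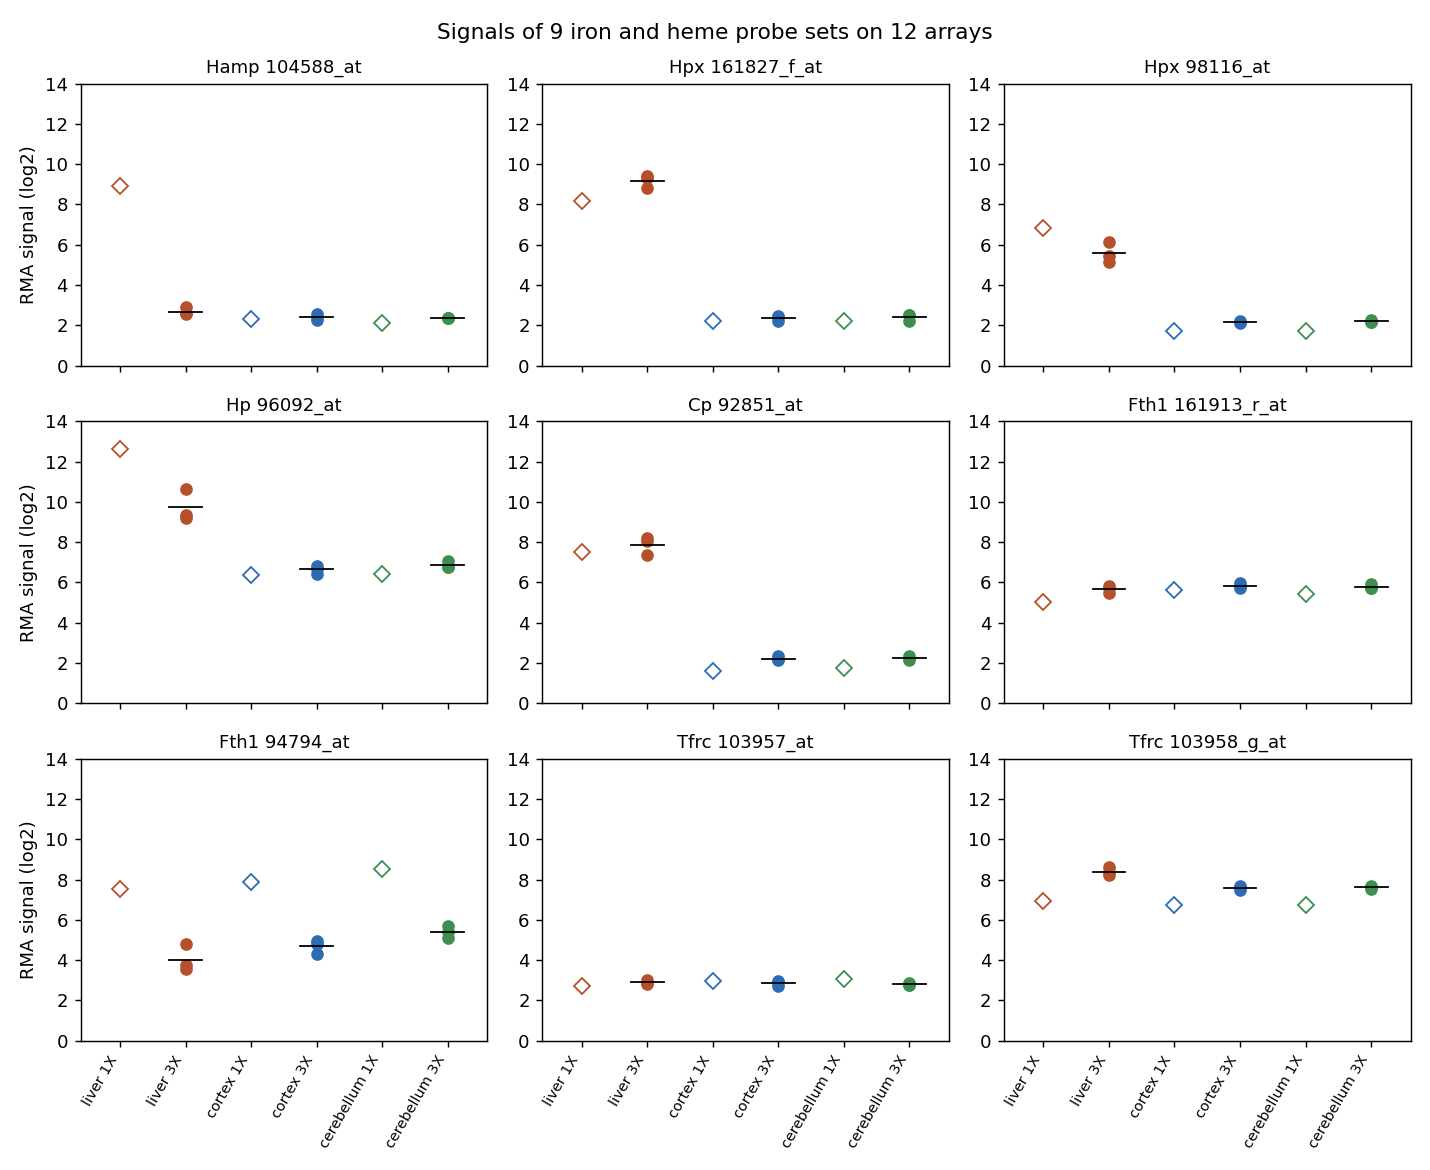
Signal (RMA, log2) of the 9 tested probe sets in each group, with open diamonds for the single 1X arrays, filled circles for the 3X arrays and a bar at the mean of 3. Hamp in liver stood at 8.92 at 1X and between 2.55 and 2.88 at 3X, while Cp in liver stayed between 7.37 and 8.21 under both procedures.

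Hepcidin, the iron hormone, was bright in liver at 1X and dim in liver at 3X. At 1X the Hamp signal (104588_at) was 8.92 (liver), 2.30 (cortex) and 2.12 (cerebellum). At 3X it was 2.60, 2.88 and 2.55 in liver, 2.28, 2.58 and 2.44 in cortex, and 2.35, 2.38 and 2.34 in cerebellum. The liver signal was high on the 1X array alone, and at 3X the liver arrays overlapped with those of cortex. All 11 other signals were dim. The liver was above the mean of both brain regions by 6.71 at 1X, from single arrays, and by 0.28 ± 0.09 (SE, 3 liver against 6 brain arrays) at 3X. The 3X difference was not called by limma, with a Benjamini-Hochberg adjusted p of 0.0624 over 12422 probe sets, and its 95% confidence interval was 0.07 to 0.49. It passed the threshold after quantile normalization (0.0416), without liver replicate 3 (0.0333) or cortex replicate 2 (0.0410), with differences of 0.31 to 0.35 there.

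The Hamp signal differed between procedures in liver, the 1 tissue where it was bright at 1X. In cortex and cerebellum it was dim at 1X already (2.30 and 2.12), so a fall there could hardly show. A test of a different shift between tissues thus cannot separate an effect confined to liver from a fall that only a bright signal can show. From 1X to 3X the Hamp signal moved by -6.24 in liver, 0.13 in cortex and 0.23 in cerebellum, each ± 0.15 (SE of the fit of 6 group means, in which each lone 1X array is given the spread of the 3X arrays). For Hamp those 3X arrays were all dim, with an SD of 0.18 in liver, 0.15 in cortex and 0.02 in cerebellum. The spread of a bright Hamp signal was not measured, so this SE may be too small and the F below too large. The moderated F test of a different shift between tissues gave F = 581 (limma adjusted p = 3.58e-07). For the background, 10.4% of probe sets were called in this test. The value rests on the single liver 1X array, and without it F, from cortex and cerebellum alone, was 0.22 (adjusted p = 1.00). The hepatocyte sum moved the same way in liver and the neuronal sum the opposite way, and their part in the shifts of Hamp, Hp and Hpx was not tested.

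Other liver transcripts lost their difference at 3X as well. At 1X 143 probe sets stood at least 4 higher in liver than in brain on the log2 scale, with a median difference of 5.21 at 1X and 3.20 at 3X. Of these, 15 (10.5%) stood less than 1 higher at 3X, Hamp among them. That grouping was chosen after the values were seen. The 143 hold 5 member probe sets and were picked by their 1X difference, so a smaller median at 3X is partly fixed in advance. Across the 12 arrays, the genes whose signals followed Hamp most closely were Tdo2 (Pearson r = 0.998), a tryptophan-degrading enzyme, the acute phase protein Orm1 (0.993) and the serum amyloid gene Saa4 (0.986). Of those, Tdo2 and Orm1 were also among the 15. With 1 array far above the others, such r values describe mainly that array.

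**Figure D2:**
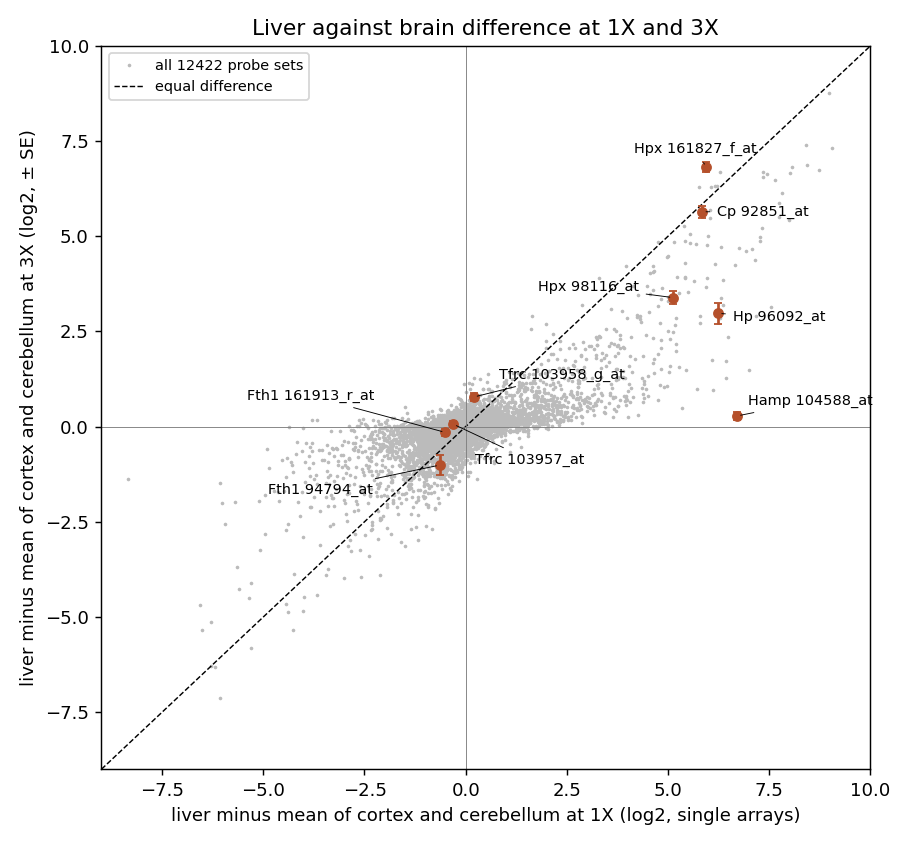
Liver minus the mean of cortex and cerebellum at 1X (x axis, single arrays) against the same at 3X (y axis, ± SE of the fit), both on the log2 scale, for 12422 probe sets in grey and the 9 tested probe sets in red. Cp and 1 Hpx probe set (161827_f_at) lie near the dashed line of equal differences, Hp and the other Hpx probe set (98116_at) below it, and Hamp near 0 at 3X.

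Hemopexin, haptoglobin and ceruloplasmin, the heme, hemoglobin and iron-oxidising proteins of plasma, kept their liver-high signals at 3X. Of the 9 tested probe sets, 6 were called between liver and brain, 5 of them higher in liver and 1 lower. The background was 20.4% of the 12422, with 8.17% higher in liver and 12.3% lower. Liver and brain arrays at 3X did not overlap for 5 of the 9, beside 20.4% of the 12422. The median difference of the 9 was 0.78, beside 0.01 over all probe sets. Against cortex alone 5 of the 9 were called, all higher in liver, beside 16.8% of the 12422 (6.64% higher, 10.1% lower). Against cerebellum alone 6 were called, 5 higher and 1 lower, beside 16.6% (6.38% higher, 10.2% lower).

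For hemopexin the 2 probe sets gave different accounts of the procedure. The signal of 161827_f_at in liver was 8.16 at 1X and 9.42, 8.83 and 9.31 at 3X, while the 8 brain arrays lay between 2.20 and 2.49. Its liver difference was 5.95 at 1X and 6.81 ± 0.13 (SE) at 3X, with a limma adjusted p of 1.02e-10. The signal of 98116_at in liver was 6.84 at 1X and 5.13, 5.43 and 6.16 at 3X, with the brain arrays between 1.70 and 2.27. Its liver difference was 5.13 at 1X and 3.39 ± 0.18 at 3X (adjusted p = 2.61e-07). No liver array overlapped with a brain array in either probe set. All brain signals of Hpx were dim.

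The shift of Hpx from 1X to 3X in liver was 1.03 ± 0.21 for 161827_f_at and -1.27 ± 0.29 for 98116_at. In cortex and cerebellum it was 0.14 and 0.19 for the first and 0.44 and 0.51 for the second. A different shift between tissues was called for 98116_at (F = 12.2, limma adjusted p = 0.0235) and not for 161827_f_at (F = 5.57, adjusted p = 0.155). After quantile normalization of the arrays these calls changed places, with adjusted p of 0.101 and 0.0141. Without liver replicate 2 they changed places too (0.0523 and 0.0183). Without the liver 1X array the F of 98116_at, from cortex and cerebellum alone, was 0.03. The suffix of the first probe set stands for probes that may also bind other transcripts. The genes closest to 161827_f_at in pattern were Otc of the urea cycle, the cytochrome P450 gene Cyp2d10 and the carboxylesterase Ces3a, each with a Pearson r of 0.998 over 12 arrays.

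Haptoglobin was far higher in liver than in brain under both procedures, with a smaller difference at 3X. Its signal (96092_at) was 12.62 in liver at 1X and 9.36, 9.18 and 10.64 at 3X. In cortex it was 6.36 at 1X and 6.67, 6.43 and 6.82 at 3X, and in cerebellum 6.40 at 1X and 7.04, 6.77 and 6.78 at 3X. Every liver array stood above every brain array, and liver replicate 3 stood highest of the 3X arrays. The brain signals lay above those of the yeast probe sets, so they were not dim. The liver difference was 6.24 at 1X and 2.97 ± 0.27 (SE) at 3X (7.85-fold, limma adjusted p = 1.82e-05). The SD of the 3 liver arrays was 0.80 against 0.20 in cortex and 0.15 in cerebellum, so the shared spread understates the error in liver. Without liver replicate 3 the difference was 2.52 ± 0.12 (adjusted p = 3.46e-08).

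From 1X to 3X the Hp signal moved by -2.89 in liver, 0.28 in cortex and 0.47 in cerebellum, each ± 0.44 (SE). The difference of these shifts was called (F = 18.8, limma adjusted p = 0.00646). Without the liver 1X array F, from cortex and cerebellum alone, was 0.10 and was not called. The average shift over tissues, -0.72 ± 0.53, was not called (adjusted p = 0.263). The genes closest to Hp in pattern were the amino acid enzyme Tat (r = 0.995), coagulation factor F10 (0.994) and the class I gene H2-Q10 (0.994).

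Ceruloplasmin was bright in liver and dim in brain under both procedures. Its signal (92851_at) in liver was 7.52 at 1X and 8.04, 7.37 and 8.21 at 3X. The brain arrays were dim, at 1.60 and 1.74 at 1X and between 2.13 and 2.33 at 3X. No liver array overlapped with a brain array. The liver difference was 5.85 at 1X and 5.64 ± 0.15 (SE) at 3X (limma adjusted p = 1.80e-09). The shift from 1X to 3X was 0.35 (liver), 0.61 (cortex) and 0.50 (cerebellum), each ± 0.25. These shifts were not called different (F = 0.27, adjusted p = 1.00), which does not show that they were alike. Their mean, a rise of 0.49 ± 0.14, was called (adjusted p = 0.0139), but not without the 1X array of cortex (0.0745) or of cerebellum (0.0565). The 1X brain arrays are dim, and the median of all probe sets rose by 0.12 at 3X. Otc, Cyp2d10 and Arg1 of the urea cycle had the patterns closest to Cp (r = 0.998 each).

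**Figure D3:**
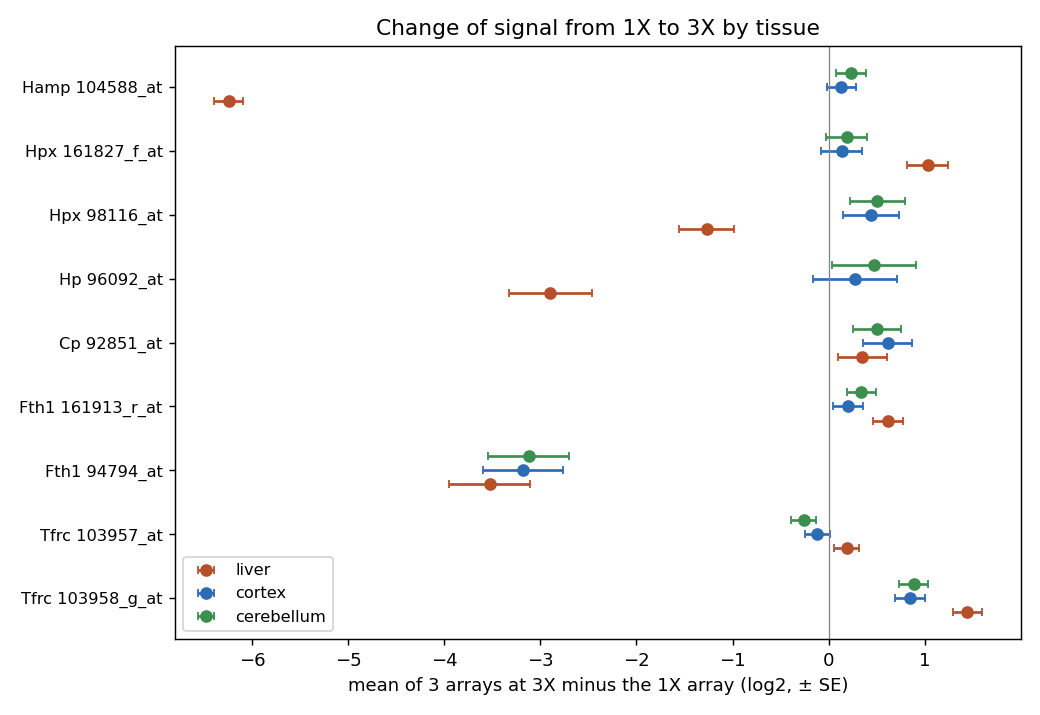
Mean of the 3X arrays minus the 1X array of each tissue (x axis, log2, ± SE of the fit of 6 group means) for the 9 tested probe sets, with tissues by colour. Hamp and Hp moved far in liver and little in brain, while Fth1 94794_at moved by -3.53 in liver, -3.18 in cortex and -3.12 in cerebellum.

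Ferritin heavy chain, the storage protein, fell at 3X in all tissues at the 1 probe set and rose slightly at the other. The signal of 94794_at at 1X was 7.55 (liver), 7.87 (cortex) and 8.51 (cerebellum). At 3X it was 3.74, 3.55 and 4.79 in liver, 4.97, 4.32 and 4.78 in cortex, and 5.09, 5.69 and 5.38 in cerebellum. All 3X arrays thus stood below all 1X arrays. The change was a fall by 3.28 ± 0.24 on the log2 scale (SE, 9 against 3 arrays; limma adjusted p = 2.70e-06). By tissue it was -3.53 (liver), -3.18 (cortex) and -3.12 (cerebellum), each ± 0.42 (F = 0.27 for a difference, adjusted p = 1.00). Several 3X values are dim, so no fold is given.

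The other Fth1 probe set, 161913_r_at, whose name carries a suffix, ranged from 5.03 to 5.62 at 1X and from 5.45 to 5.95 at 3X. It rose by 0.39 ± 0.10 (limma adjusted p = 0.00637), and 0.0600 with the 3 tissues as units. The mean of both probe sets fell by 1.44 ± 0.10 (adjusted p = 1.50e-06). Its closest patterns over the arrays were those of Tcte1 (r = 0.968), Rcc2 (0.958) and Rtkn (0.952).

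Between tissues Fth1 was the 1 gene of the set with a called difference towards lower signal in liver. At 94794_at the liver stood below the mean of the brain regions by -0.64 at 1X and by -1.01 ± 0.26 (SE) at 3X (limma adjusted p = 0.0184). Liver replicate 3, at 4.79, overlapped with cortex, while replicates 1 and 2 lay below all brain arrays. Without liver replicate 1 or 2 the difference was no longer called (adjusted p = 0.0818 and 0.0916), and without replicate 3 it was -1.39 ± 0.18 (0.000147). Against cerebellum alone it was -1.36 ± 0.30 (0.00993; 0.0501 without cerebellum replicate 2), and against cortex alone -0.66 ± 0.30 (0.178; 0.00309 without liver replicate 3). At 161913_r_at the liver differed from brain by -0.15 ± 0.09 (0.319), and by -0.58 ± 0.11 (0.00277) in the mean of both probe sets.

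The transferrin receptor, which imports transferrin-bound iron, was higher in liver than in brain at 3X at 1 of its 5 probe sets, and higher at 3X than at 1X at that probe set and at 2 of the control probe sets. The signal of 103958_g_at at 1X was 6.95 (liver), 6.76 (cortex) and 6.74 (cerebellum). At 3X it was 8.61, 8.36 and 8.21 in liver, 7.70, 7.63 and 7.50 in cortex, and 7.65, 7.67 and 7.55 in cerebellum. All 3X arrays stood above the 1X arrays, and at 3X the liver arrays stood above all brain arrays. It rose at 3X by 1.06 ± 0.12 (SE; 2.08-fold; limma adjusted p = 3.90e-05). At 3X it was higher in liver than in brain by 0.78 ± 0.09 (1.71-fold; 0.000156), beside 0.20 at 1X. The shift by tissue was 1.44 (liver), 0.85 (cortex) and 0.88 (cerebellum), each ± 0.15, and these did not pass the test of a difference (F = 4.78, adjusted p = 0.205). The probe set 103958_g_at carries a suffix, so its probes may also bind other transcripts.

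None of the other 4 Tfrc probe sets was called between liver and brain, and 2 of them rose at 3X. The signal of 103957_at was dim on all 12 arrays, at 2.71 to 3.07. It was higher in liver by 0.07 ± 0.08 (limma adjusted p = 0.643) and lower at 3X by -0.06 ± 0.09 (0.539). The 3 control probe sets are placed by their names at the 5′ end, the middle and the 3′ end of the transcript. Their signals over the 12 arrays were 2.25 to 3.00 at the 5′ end, 3.82 to 4.49 in the middle and 2.26 to 3.45 at the 3′ end, all dim. Control probe sets are left out of the main fit. A fit that added them, chosen after the data were seen and run on 12425 probe sets, gave a liver difference of -0.21 ± 0.12 at the 5′ end, -0.20 ± 0.10 in the middle and -0.36 ± 0.15 at the 3′ end, none called (limma adjusted p from 0.127 to 0.270). From 1X to 3X the same fit gave 0.23 ± 0.11 at the 5′ end (adjusted p = 0.101), 0.33 ± 0.09 in the middle (0.00893) and 0.42 ± 0.14 at the 3′ end (0.0210). The mean of both tested probe sets was higher in liver by 0.42 ± 0.08 (0.00214). The patterns closest to 103958_g_at were those of Cwf19l1 (r = 0.977), Elane (0.970) and Kif23 (0.968).

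No difference between cortex and cerebellum passed the test for these genes at 3X. None of the 9 probe sets was called by limma, beside 1.06% of the 12422 (0.435% higher in cortex, 0.628% lower), and 1 had an unadjusted p under 0.05. That was Fth1 94794_at, at -0.70 ± 0.30 (SE, cortex minus cerebellum; 95% interval -1.36 to -0.04; adjusted p = 0.542) and -0.64 at 1X. The largest difference among the remaining 8 belonged to Hp, at -0.23 ± 0.31 (95% interval -0.91 to 0.46; adjusted p = 0.959). The intervals of the other 7 reached from -0.50 to 0.41, so that differences of up to that size remain possible. The kidney markers, higher in cerebellum, stand beside these values, and their part in them was not tested.

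Over all members, the procedure changed 5 of the 9 tested probe sets in the additive fit of tissue and procedure, 4 higher and 1 lower at 3X. This is close to the background of 56.9% called, with 37.5% higher and 19.5% lower, and is no result about these genes. The call of Hpx 161827_f_at, at 0.45 ± 0.17 (SE; limma adjusted p = 0.0425), was lost without the liver 1X array (0.16) and without 6 of the 9 3X arrays in turn. The additive shift of Hamp, -1.96 ± 0.93, was not called (0.0922), and without the liver 1X array it was 0.18. For 3 of the 9, Tfrc 103958_g_at and both Fth1 probe sets, no 3X array reached the 1X value in any tissue and the direction was shared by the tissues, beside 52.8% of the 12422.

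A list of 62 symbols of iron and heme handling had 42 measured genes, counted at the probe set with the highest mean. Between liver and brain at 3X, 8 were called higher and 2 lower, with a median difference of 0.07 beside 0.01 over the 12422. That is 23.8% of the list (19% higher, 4.76% lower), beside 20.4% of all probe sets (8.17% higher, 12.3% lower). Cortex and cerebellum differed in none of the 42 by limma. From 1X to 3X 14 rose and 8 fell, which is 52.4% of the list beside 56.9% of all probe sets (37.5% higher, 19.5% lower).

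Of the 19 genes that sense iron or control hepcidin, 4 were called higher in liver and 1 lower (26.3%, beside 20.4% of all probe sets). Cebpa, a liver transcription factor, was higher by 0.89 ± 0.08 (SE; limma adjusted p = 2.44e-05), beside 3.33 at 1X. The hemochromatosis gene Hfe was higher by 0.52 ± 0.09 (0.00134; 1.58 at 1X), with dim group means under both procedures. Transferrin receptor 2 (Tfr2), an iron sensor of hepatocytes, was higher by 0.37 ± 0.11 (0.0380; 2.66 at 1X), and the interleukin 6 receptor Il6ra by 0.33 ± 0.09 (0.0272; 0.56 at 1X). The calls of Tfr2 and Il6ra were each lost in 6 of the 9 fits that left out 1 array. The adjusted p reached 0.146 for Tfr2 (difference 0.22) and 0.101 for Il6ra (0.29), both without liver replicate 1. The call of Tfr2 was also lost in the additive fit of all 12 arrays (0.0531). At 3X the group means of Tfr2 were dim in all tissues, at 4.57 (liver), 4.26 (cortex) and 4.15 (cerebellum). The BMP receptor Bmpr2 was lower in liver by -2.33 ± 0.13 (3.94e-07; -1.18 at 1X), with dim signals in all tissues. Hamp, Tfr2, Hfe and Cebpa all had larger liver differences at 1X than at 3X. A different shift between tissues was called for each (adjusted p of 3.58e-07, 0.000192, 0.00586 and 2.71e-05), beside 10.4% of all probe sets. The liver 1X array is shared by those 4 values. Smaller liver differences at 3X were seen at other probe sets too. The 143 probe sets at least 4 higher in liver at 1X had a median difference of 5.21 at 1X and 3.20 at 3X. That set was picked by its 1X values, so a smaller median at 3X is partly fixed in advance. Tfr2, Hfe and Cebpa lie below its cut of 4, so it is no reference for them.

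**Figure D4:**
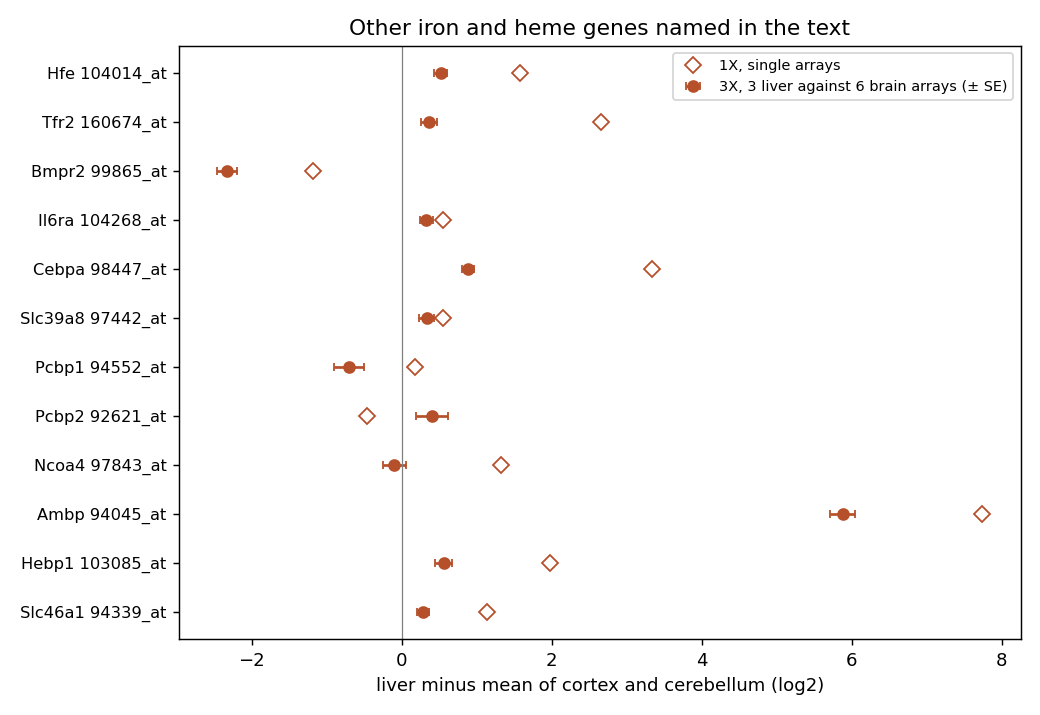
Liver minus the mean of cortex and cerebellum (x axis, log2) for the 12 named genes of the iron list, with open diamonds for single 1X arrays and filled circles for the 3X fit (± SE). Ambp stood 7.74 higher in liver at 1X and 5.88 at 3X, and for Cebpa and Tfr2 the 1X value lay far to the right of the 3X value.

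Among 7 genes of heme and hemoglobin clearance, 3 were called higher in liver, beside 8.17% of all probe sets. Ambp, which encodes a heme-binding plasma protein, stood at 5.88 ± 0.17 (SE; limma adjusted p = 2.25e-09; 7.74 at 1X). The heme-binding Hebp1 stood at 0.56 ± 0.12 (0.00626; 1.98 at 1X) and the heme and folate transporter Slc46a1 at 0.29 ± 0.08 (0.0262; 1.14 at 1X). The call of Slc46a1 was lost in 6 of the 9 fits that left out 1 array (adjusted p up to 0.105, without liver replicate 2). Its group means were dim in all tissues under both procedures.

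Of 8 genes for uptake and export, 1 was called higher in liver (12.5%, beside 8.17% of all probe sets). This was the metal transporter Slc39a8, at 0.34 ± 0.10 (SE; limma adjusted p = 0.0371; 0.55 at 1X). That call was lost in 5 of the 9 fits that left out 1 array (adjusted p up to 0.155 and a difference of 0.25 without liver replicate 1). The group means of Slc39a8 were dim in all tissues under both procedures. From 1X to 3X 6 of the 8 rose, beside 37.5% of the 12422. Of 8 genes for storage and intracellular control, 5 fell and 2 rose at 3X, beside 19.5% and 37.5% of the 12422. The ferritinophagy receptor Ncoa4 fell by 1.16 (adjusted p = 0.00273), with dim group means under both procedures. Pcbp2 fell by 1.59 (0.000238), to dim group means at 3X, and the iron chaperone Pcbp1 fell by 2.08 (4.65e-05). Pcbp1 was also lower in liver than in brain at 3X, by -0.71 ± 0.20 (0.0300), while its 1X difference was 0.17. That call was lost in 5 of the 9 fits that left out 1 array (-0.49, adjusted p = 0.138 without liver replicate 2) and in the additive fit of all 12 arrays (-0.49, 0.131).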

How the data were processed

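The authors deposited RMA signals, taken here as log2, with RMA named in the submitters' processing notes. The version of RMA, the base of the logarithm and the arrays summarised jointly were not stated there. Base 2 follows from the maximum of 14.46, which lies above the natural log of the largest 16-bit scanner value (11.09). No pair of arrays was identical.

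Without the 66 control probe sets, 12422 were tested (10833 with 1 symbol, 396 with several, 1193 with none). Linear models used limma 3.58.1 (R 4.3.3) with moderated two-sided tests. P-values were adjusted over the 12422 by Benjamini-Hochberg, and a difference was called at an adjusted p under 0.05. Tissues were compared over the 9 3X arrays, procedures in an additive fit of tissue and procedure over 12, and the tissue dependence by a moderated F test over 6 group means. The 1X arrays have no replicates, and tissue differences between them have no test.

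Named were all probe sets of the members, the list genes called between tissues or changed by at least 1 on the log2 scale between procedures, and per member the 3 genes with the highest Pearson r over 12 arrays. Members and lists were chosen with earlier results of these data known. Alternatives were other scalings, filters, moderation, a replicate block, other fits and leaving out each array. Motifs and alignments were computed with Biopython 1.88. The scripts were tested on simulated data. For arrays, their number limits the precision.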

Additional observations from a re-analysis of the deposited data

Results flagged for a closer look

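These results were singled out because the shift from 1X to 3X differed between tissues. The test was the moderated F test (limma, adjusted p over 12422 probe sets, of which 10.4% were called). All of these results use the single liver 1X array, which is given the spread of the 3X arrays. Among the members these were Hamp (F = 581, adjusted p = 3.58e-07), Hp (F = 18.8, 0.00646) and Hpx 98116_at (F = 12.2, 0.0235). In each the liver signal was lower at 3X, by -6.24, -2.89 and -1.27, while cortex and cerebellum stood 0.13 to 0.51 higher. The brain signals of Hamp and Hpx 98116_at were dim at 1X already, so a fall there could hardly show.

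Among the other iron and heme genes, the same held for Cebpa (F = 109, adjusted p = 2.71e-05), Tfr2 (F = 55.2, 0.000192), Hfe (F = 19.4, 0.00586), Hebp1 (F = 18.5, 0.00675), Ambp (F = 14.9, 0.0130) and Slc46a1 (F = 14.8, 0.0132), whose liver shifts were -2.20, -2.16, -0.96, -1.19, -1.66 and -0.54. Of these, Hfe, Tfr2, Ambp and Slc46a1 were also dim in both brain regions at 1X. Ncoa4 (F = 11.4, 0.0281) was lower at 3X in all tissues, by -2.11 in liver, -0.52 in cortex and -0.86 in cerebellum. Bmpr2 (F = 10.3, 0.0372) was higher in all, by 0.78, 2.05 and 1.81. Without the liver 1X array none of these results was called, but the test then compared cortex and cerebellum alone and held no liver shift. The call of Bmpr2 was also lost without any of 6 other arrays (adjusted p 0.0517 to 0.0710) and that of Ncoa4 without any of 6 others (0.0503 to 0.0607) and after quantile normalization (0.0580). Quantile normalization also ended the calls of Ambp (0.0699) and Slc46a1 (0.0601). With 1 to 3 arrays in a group, no array was tested as an outlier.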

How the results depend on the processing

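Precision is limited by 3 technical replicates at 3X and 1 array at 1X from 1 mouse, and dim signals bound what the brain arrays of Hamp, Hpx and Cp can show. Of 999 recomputed values of member probe sets, 933 kept direction and side of the threshold; the cause of the other changes was not tested. The additive fit of all 12 arrays turned Ncoa4 in liver to 0.26 against brain, 0.30 against cortex and 0.21 against cerebellum, Tfrc 103957_at to -0.028, -0.037 and -0.019, and Pcbp2 against cerebellum to -0.060. Averaging a gene's probe sets gave -0.33 for Fth1 161913_r_at and 0.019 for Tfrc 103958_g_at between cortex and cerebellum, and, from 1X to 3X, -1.44 for Fth1 161913_r_at, 0.17 for Hpx 98116_at and 0.50 for Tfrc 103957_at. Quantile normalization gave -0.021 for Slc46a1 from 1X to 3X. Without suffixed probe sets 3 of 6 members were called against cortex, beside 1588 of all 9614, and 2 of 6 between procedures, beside 5432 of 9614. Between procedures, gene averages called 3 of 6, beside 4586 of 8251 genes, and tissues as units 3 of 9, beside 4690 of 12422. Above the median level, 1 of 6 depended on tissue, beside 804 of 6211 probe sets.

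Leaving out 1 array at a time gave these ranges. For liver, Ncoa4 ranged from -0.31 to 0.013 against brain, from -0.31 to 0.016 against cortex and from -0.31 to 0.0097 against cerebellum, Tfrc 103957_at from -0.026 to 0.085 against cortex, and Pcbp2 from -0.13 to 0.32 against cerebellum. For cortex against cerebellum the ranges were -0.0011 to 0.10 for Cebpa, -0.091 to 0.0071 for Cp, -0.026 to 0.097 for Fth1 161913_r_at, -0.11 to 0.034 for Hfe, -0.14 to 0.023 for Hpx 161827_f_at, -0.12 to 0.12 for Ncoa4 and -0.060 to 0.037 for Tfrc 103958_g_at. From 1X to 3X, where the liver 1X array set the upper end for all but Tfrc 103957_at, they were -0.74 to 0.20 for Ambp, -1.001 to 0.24 for Cebpa, -3.06 to 0.18 for Hamp, -0.50 to 0.23 for Hebp1, -0.45 to 0.10 for Hfe, -1.31 to 0.37 for Hp, -0.41 to 0.47 for Hpx 98116_at, -1.02 to 0.14 for Tfr2, -0.15 to 0.31 for Slc46a1 and -0.19 to 0.034 for Tfrc 103957_at. Members whose shift depended on tissue numbered 0 to 3, beside 44 to 1814 of the 12422 probe sets. The lowest counts came without the liver 1X array, where the test compared cortex and cerebellum alone.

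Hamp in liver against brain was called after quantile normalization (0.31, limma adjusted p = 0.0416), with trended robust moderation (0.0461), with the replicate block (0.0351), without liver replicate 3 (0.35, 0.0333) and without cortex replicate 2 (0.0410). The additive shift of Hamp was called without the 1X array of cortex (-3.00, 0.0369) or of cerebellum (-3.06, 0.0358). Over all probe sets, the 132 calls between cortex and cerebellum became 262 with only those arrays, 250 without liver replicate 3, 82 without cerebellum replicate 2 and 86 without replicate 3. The 1294 calls of tissue dependence became 44 without the liver 1X array, where only cortex and cerebellum were compared. Between procedures the 7073 calls became 4586 with gene averages and 4690 with tissues as units. With the replicate block, 7, 5, 7 and 0 members were called for liver against brain, cortex and cerebellum and for cortex against cerebellum, beside 6, 5, 6 and 0 without it. Over the 12422 probe sets the calls were 2729, 2277, 2225 and 170 with the block, beside 2537, 2082, 2059 and 132 without it. Deviations of arrays with the same number correlated at -0.10 to 0.34, over 0.1 in 5 of 9 pairs. The pairs of replicate 3 arrays all stood at 0.29 to 0.34, so those arrays shared part of their deviation. As not all pairs passed 0.1, the numbers were not taken to pair the arrays.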
